A study of Mus musculus with 18 samples.

Results

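miR-208b-3p and miR-499-5p are muscle miRNAs encoded inside myosin heavy chain genes, and they were followed here through all libraries of a study of C2C12 cells. C2C12 cells are mouse myoblasts, kept as an established line, and they fuse into myotubes when serum is lowered. The members are the rows named mmu-miR-208b-3p and mmu-miR-499-5p, 2 of the 2042 miRNA names in the table. Small RNA had been sequenced from 18 libraries in 6 groups of 3. Input RNA came from lysates of undifferentiated cells and of cells differentiated for 7 days. From both states there were also eluates of a miTRAP, in which a bait RNA is immobilised, lysate is passed over it, and the bound miRNAs are recovered. The bait was the 3'UTR of MRTF-A (gene Mrtfa, a coactivator of serum response factor) in one set of eluates and an MS2 control in the other. All groups are one unmodified cell line grown in 10% fetal calf serum. The differentiated cells were kept in 2% horse serum, a treatment that the sample records list for every library, also for undifferentiated cells. The labels give the tissue as myoblasts for every library, also for differentiated cells, and do not say whether the 3 libraries of a group are separate cultures, so a p-value here speaks of the spread among libraries alone, and that spread may be technical.

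A muscle fibre carries a contractile apparatus whose motor, the myosin heavy chain, exists as several genes with different speeds. Myh7 encodes the slow, beta heavy chain, Myh6 the alpha chain of heart muscle, and Myh7b a further slow-type chain. Each has an intronic miRNA (miR-208b, miR-208a and miR-499), which is transcribed together with its host, and miR-208b and miR-499 are known to favour the slow fibre programme by repressing transcriptional repressors of slow genes such as Sox6. They belong to the myomiRs, miRNAs found mainly in striated muscle, together with miR-1, miR-133, miR-206 and miR-486.

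The mature sequences show how closely the members are related. They are given from RefSeq (GRCm38.p6) with the seed, bases 2 to 8 counted from the 5′ end, in capitals, and miR-208a-3p is added because its seed equals that of miR-208b-3p.
mmu-miR-499-5p: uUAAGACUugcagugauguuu
mmu-miR-208b-3p: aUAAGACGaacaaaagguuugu
mmu-miR-208a-3p: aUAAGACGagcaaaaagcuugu
The 2 members share 6 bases from position 2 onward and part at the last seed base (G8U, miR-208b-3p first). Beyond the seed they have little in common, as only 10 of 21 aligned positions are identical over the whole length, the 6 shared seed bases included. miR-208b-3p and miR-208a-3p differ at 3 of 22 positions (A10G, G16A and U18C), none of them in the seed. Among 1679 mature mouse names in RefSeq, these 3 are the only ones with the bases UAAGAC at positions 2 to 7.

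miR-499-5p lies on chromosome 2 at chr2:155622893-155622913 (plus strand), within the hairpin Mir499 at chr2:155622880-155622958. That hairpin sits in intron 19 of Myh7b (ENSMUSG00000074652.3), on the strand of the host, in the transcript of 42 exons annotated by GENCODE vM21. miR-208b-3p lies at chr14:54975710-54975731 (minus strand). Its hairpin Mir208b (chr14:54975700-54975776) is in intron 31 of Myh7 (ENSMUSG00000053093.16), a gene of 41 exons, again on the host's strand. Mir208a lies 26557 bases away from Mir208b, in intron 29 of Myh6, so the most similar miRNA is encoded in the neighbouring myosin gene. All positions are on GRCm38, the build named in the submitters' processing notes. The mRNAs of the host genes were not measured in these small RNA libraries.

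Reads were recovered from the deposited values, which are normalised CPM, that is reads scaled to an effective library size of 0.341 to 2.37 times the library's total. There were 294112 to 860828 reads per input library. The differentiated MRTF-A eluates were of similar depth to the differentiated inputs (306483 to 544504 against 314110 to 462847 reads), the undifferentiated ones were shallower (107165 to 352674 reads), and the MS2 controls were far shallower (15562 to 39695 reads). A single read was worth 1.66 to 3.05 CPM in the inputs, 3.33 to 15.3 CPM in the MRTF-A eluates and 11.9 to 34.3 CPM in the MS2 controls, so the control is the kind of library in which a scarce miRNA is hardest to see. The letters A, B and C tell the libraries of each group apart and stand for the endings of their column names. The myomiR list summed to 92358 to 115570 CPM in differentiated and 4862 to 11273 CPM in undifferentiated input. Of the marker miRNAs of blood cells, 4 of 6 names in the table were at 0 in differentiated input and the list summed to at most 4.30 CPM there. The epithelial list, with 4 of 7 names at 0, summed to at most 43.2 CPM. The neural list had 2 of 5 names at 0 in differentiated input and summed to 1867 to 2568 CPM there, against 950.2 to 1552 CPM in undifferentiated input, but of its 3 names tested 1 was higher and 2 were lower after differentiation (median log2 difference -1.74). The endothelial and smooth muscle list had 2 of 4 names at 0 and summed to 23202 to 52914 CPM against 27373 to 28120 CPM. Most of its sum in differentiated input was miR-143-3p (mean 41563 CPM), and the names at 0 were miR-126a-3p and miR-126a-5p. In the neural list miR-128-3p held most of the sum (mean 2208 CPM), and miR-124-3p and miR-9-3p were at 0. The part of other cell types in the results was not tested.

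Both members appeared with differentiation. miR-499-5p had 0 reads in each of the 3 undifferentiated inputs and 101, 97 and 93 reads in differentiated inputs A, B and C. These counts correspond to 185, 182 and 200.01 CPM, a mean of 189 ± 9.47 CPM (SD, n = 3). Every differentiated library therefore lies far above every undifferentiated one, and the 3 differentiated libraries are close to each other. Against the level of 3 reads in each undifferentiated library, miR-499-5p was at least 25.3-fold higher after differentiation.

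miR-208b-3p, the miRNA of the slow myosin gene Myh7, had 0 reads in the undifferentiated inputs as well. It had 24, 21 and 16 reads in differentiated inputs A, B and C, or 44.1, 39.5 and 34.4 CPM (mean 39.3 ± 4.83 CPM, SD, n = 3). The groups do not overlap here either, but the level is much closer to what these depths can show, since 3 reads are worth 4.97 to 9.14 CPM in the undifferentiated inputs. The rise was at least 5.26-fold by the same bound. Input RNA comes from a whole culture, so a larger share of cells with these miRNAs and more of them per cell cannot be told apart.

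In the test over all 313 names kept in the 6 inputs (limma on log2(CPM + 10), Benjamini-Hochberg adjustment), miR-499-5p differed by 4.32 ± 0.29 (log2 difference with its standard error, adjusted p = 1.24e-07) and miR-208b-3p by 2.30 ± 0.24 (adjusted p = 9.25e-06). These were the differences ranked 4 and 13 from the top. Both passed, where 16% of all names tested were called higher in differentiated input. The calls were 50 higher and 145 lower with the deposited scaling, but 88 higher and 90 lower with TMM factors (a trimmed mean of ratios) computed from these inputs, and the median difference of all names then moved from -0.64 to -0.08. As both entered the test only through their differentiated libraries, where they had reads, the 2 calls say no more than the levels above. Relative to the median of -0.64 the members stood at 4.95 and 2.93. The fitted differences depend on the pseudocount of 10 and understate the change of miRNAs with 0 reads. In the authors' deposited table the log2 fold changes were 9.48 (FDR 6.22e-22) and 7.23 (FDR 2.28e-06).

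**Figure D1:**
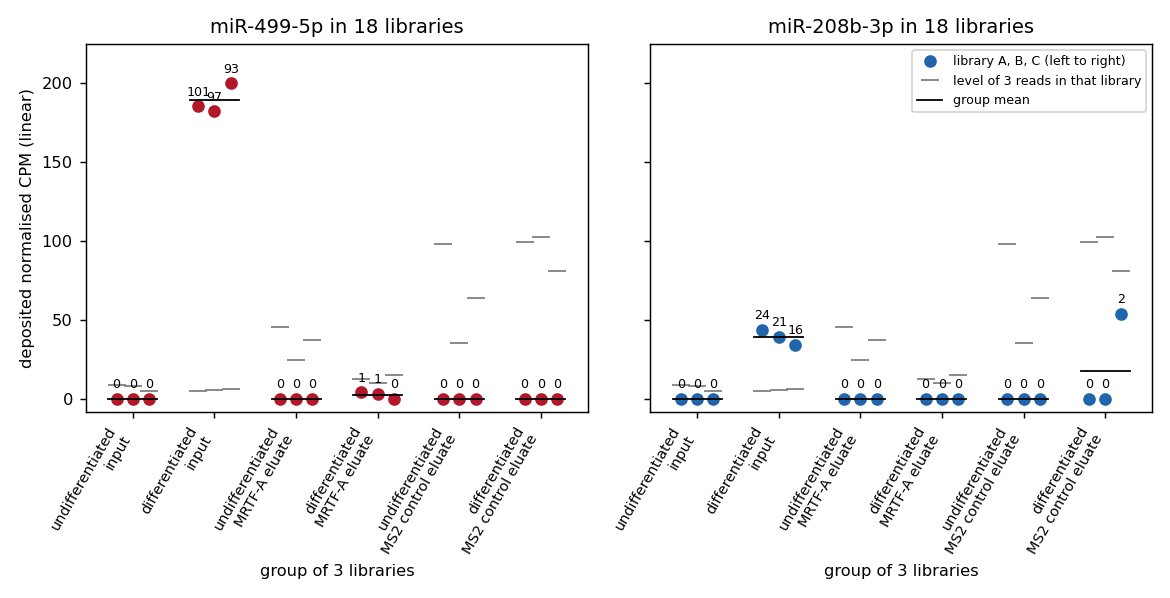
Deposited CPM of miR-499-5p (left) and miR-208b-3p (right) in each of the 18 libraries on a linear axis, with the number of reads beside each point, the group mean as a black line and the level of 3 reads in that library as a grey tick. miR-499-5p stands at 182 to 200.01 CPM in differentiated input and at 0 to 2 reads in total in every other group, while the 2 reads of miR-208b-3p in differentiated MS2 library C lie below that library's level of 3 reads.

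Within differentiated input, miR-499-5p was the more abundant member in every library. It had 4.21, 4.62 and 5.81 reads per read of miR-208b-3p in libraries A, B and C, a mean of 4.88 ± 0.833 (SD, n = 3). With reads pooled the ratio was 4.77 (95% exact binomial interval 3.61 to 6.39), and the intervals of the single libraries overlap each other. The 2 miRNAs are 21 and 22 bases long, so length has little weight in this ratio, but it is a ratio of reads and not of molecules, since how well each was captured in library preparation was not measured. On this scale miR-499-5p made up 0.0253 ± 0.00433% and miR-208b-3p 0.00521 ± 0.000731% of the reads of differentiated input (SD, n = 3). Among 1127 names with a read there they took ranks 117 and 220 by mean CPM.

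The neighbours of miR-499-5p in that order were miR-101a-3p above it (200.4 ± 19.3 CPM) and miR-374b-5p below it (183 ± 7.80 CPM), which do not differ from it beyond the spread of the libraries. The 3 names on either side of it spanned 179 to 222 CPM. Those of miR-208b-3p were the name miR-6355 (39.4 ± 13.4 CPM) and miR-423-5p (38.6 ± 5.95 CPM), again within the spread, and the 3 names on either side spanned 37.6 to 41.0 CPM. All 4 nearest neighbours were also found in undifferentiated input, at means of 59.6, 487, 45.9 and 123 CPM, where the members had no read.

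Reads came from 1 arm of each hairpin. In differentiated input the 5p arm of miR-499 gave 291 reads and its 3p arm 5, so 98.3% of the hairpin's mature reads were miR-499-5p (95% exact binomial interval 96.1 to 99.5%). For miR-208b it was the 3p arm that gave the reads, 61 against 0 of miR-208b-5p, which allows the other arm up to 4.92% of the hairpin's reads when 3 reads over the pooled total are taken as the limit. miR-208b-5p had a single read in the whole table, in undifferentiated MS2 library A, below the level of 3 reads. Such intervals and limits cover counting error only.

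miR-208a, the miRNA of the heart myosin gene Myh6, was nearly absent. miR-208a-3p had 1 read, in differentiated input B, and miR-208a-5p had 0 reads in all 18 libraries. Differentiated input thus held 61 reads of the Myh7 miRNA and 1 of the Myh6 miRNA, although their hairpins are neighbours and their mature sequences differ at 3 bases. How reads with mismatches were assigned is not given in the sources used here, so whether the single read is a separate molecule was not tested.

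The other myomiRs put these levels in proportion. All 8 names of the list that were tested, the members included, were called higher in differentiated input, against 50 of all 313 names (16%). Their median log2 difference was 3.85 against -0.64 over all names. The members and miR-1a-3p entered this test only through differentiated input, so their calls add nothing to the read counts. miR-1a-3p, the main miRNA of striated muscle, also had 0 reads in undifferentiated input and reached 7069 ± 609.6 CPM. miR-133a-3p, made from the same transcripts as miR-1, rose from 605 ± 552 to 40632 ± 9089 CPM, and miR-206-3p, of skeletal muscle, from 120.3 ± 46.8 to 1298 ± 175 CPM. The member not tested was miR-208a-3p. Of the reads that the list took in differentiated input, miR-499-5p made up 0.177% and miR-208b-3p 0.0370%, so both are minor myomiRs in these cells. miR-486-5p and miR-3107-5p are the same mature sequence under both names and are counted as 2 in these numbers.

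**Figure D2:**
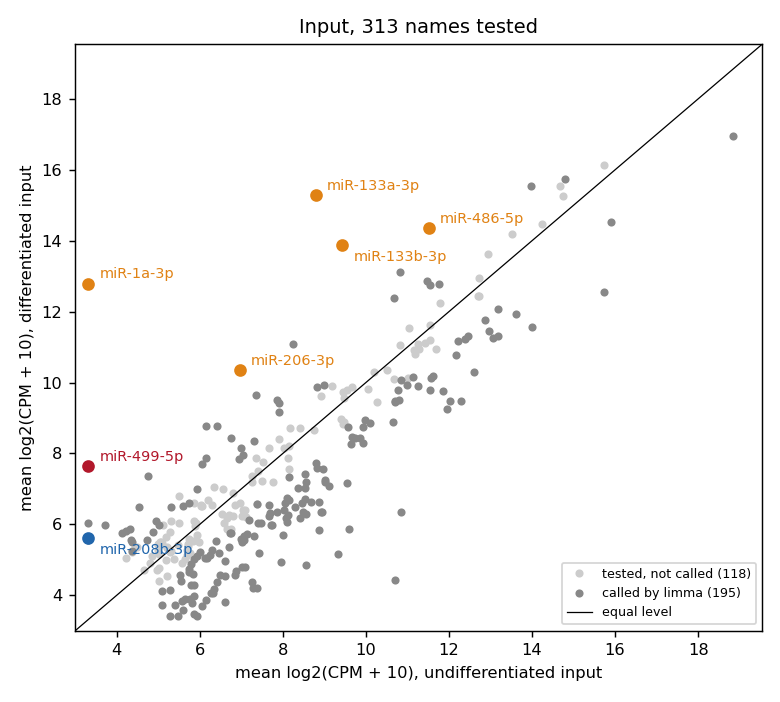
Mean log2(CPM + 10) of the 313 names tested, in undifferentiated (horizontal) and differentiated (vertical) input, 3 libraries each, with called names in dark grey, other names in light grey and tested myomiRs in colour (miR-3107-5p, which nearly coincides with miR-486-5p, is left out). miR-1a-3p, miR-499-5p and miR-208b-3p stand on the left edge, the level of 0 reads in undifferentiated input, at 3 different heights.

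Differentiated input had 278 names with reads that had none in undifferentiated input, and from the sixth in order of level onward a name had at most 27 of them. By mean CPM the order of the first 5 was miR-1a-3p (7069), miR-499-5p (189), miR-1b-5p (56.7), miR-208b-3p (39.3) and miR-335-5p (37.2). The members are thus the second and the fourth of the names that went from no read to reads. miR-1b-5p lies opposite miR-1a-3p on the other strand, and as the strand setting of the counting is not given in the sources used here, it may not be counted apart from it.

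Over the 18 libraries the miRNA most like miR-499-5p was miR-335-5p, which is encoded in an intron of the imprinted gene Mest (Pearson r = 0.995 of log2(CPM + 10), among 357 names with at least 10 reads in at least 3 libraries). It had 57 reads in differentiated input (37.2 ± 5.03 CPM) and 0 in undifferentiated input, in the differentiated MRTF-A eluates and in the differentiated MS2 eluates. Next came miR-335-3p (r = 0.885), the name miR-6481 (r = 0.839), miR-208b-3p (r = 0.780) and miR-501-5p (r = 0.772). For miR-208b-3p the closest were miR-181a-2-3p (r = 0.793), miR-335-5p (r = 0.786), miR-499-5p, miR-7220-5p (r = 0.777) and miR-378b (r = 0.766). The lower values for miR-208b-3p go with its 2 reads in 1 MS2 library. These correlations are descriptions: the libraries share groups, and a miRNA seen in 1 group of 3 correlates with any other that is seen there.

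The miTRAP addressed which miRNAs the MRTF-A 3'UTR retains, and for both members the eluates held almost nothing. In undifferentiated cells neither had a read in any of the 3 MRTF-A or 3 MS2 control eluates. In differentiated cells miR-499-5p had 1, 1 and 0 reads in MRTF-A eluates A, B and C (4.36, 3.33 and 0 CPM) and 0 in each MS2 control eluate. miR-208b-3p had 0 reads in each differentiated MRTF-A eluate and 0, 0 and 2 reads in MS2 control eluates A, B and C, the 2 reads of library C being worth 54.2 CPM. No bait group and no control group held more than 2 reads of a member.

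With so few reads no fold between MRTF-A bait and MS2 control can be given in either state, nor between the MRTF-A eluates of the 2 states. Neither member passed the filter for the 12 eluates, where 169 names were tested. With every name that had a read included (1151 names), the adjusted p of limma for bait against control in differentiated cells was 0.259 for miR-499-5p and 0.322 for miR-208b-3p. In the authors' deposited table the FDR was 1 for both. A miRNA bound by the bait more than by the control was therefore not detectable for these members, which does not show that they bind alike.

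The MRTF-A eluates can be set against the input of the same state, since their depth would show the members at their input share. At its mean share of differentiated input, miR-499-5p would have given 104, 138 and 77.4 reads in MRTF-A libraries A, B and C, and 1, 1 and 0 were counted. Pooled, 2 reads stood against 319 at the input share. At its mean CPM of differentiated input the reads expected were fewer, at 43.4, 56.8 and 36.8, or 137 pooled. The level in input was 68.3 times that in the eluate on the CPM scale (291 against 2 reads, 95% counting interval 18.7 to 567) and 156 times as a share of reads (95% counting interval 42.9 to 1296).

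In the fit of all 18 libraries the log2 difference of eluate against input was -4.00 ± 0.21 (limma, adjusted p = 8.52e-11, 305 names tested), rank 27 from the lowest. As miR-499-5p entered this fit only through the 3 differentiated inputs, where it had reads, the call adds nothing to the read counts. Eluate lower than input is a frequent outcome, as it was called for 30.8% of names, and miR-499-5p was among them. With library totals in place of the deposited scaling the calls moved from 95 higher and 94 lower to 69 and 125, with miR-499-5p still lower. In the authors' deposited table the log2 fold change was -5.94 (FDR 5.80e-16).

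miR-208b-3p would have given 21.5, 28.4 and 16.0 reads in MRTF-A libraries A, B and C at its input share, and none was counted. At its mean CPM of differentiated input the reads expected were 9.02, 11.8 and 7.64. Its level was at least 3.06-fold lower than in input, taking 3 reads in each eluate library, or at least 6.93-fold as a share of reads. The filter left it out of this comparison, because its 39.3 CPM in input lie under the 63.5 CPM that a depth of 18 libraries asked for. Without the filter it passed (limma, adjusted p = 0.00255 over 1604 names), and the authors' deposited table gave it an FDR of 4.81e-05.

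The MS2 control was too shallow for most of this. At the input share miR-499-5p would have given 5.70, 5.92 and 3.93 reads in differentiated MS2 libraries A, B and C, 15.6 in all, and 0 were counted. The bound is that input was at least 2.00-fold higher (1.67-fold as a share of reads). The authors' deposited table lists miR-499-5p as lower in the MS2 eluate than in input (FDR 2.06e-06). For miR-208b-3p the input share amounts to 3.21 reads over the 3 libraries and 2 were counted, a ratio of input to control of 1.90 (95% counting interval 0.505 to 16.1). For miR-208b-3p a difference between control and input was not detectable at this depth. The 2 reads are both in library C, which has the fewest reads of all libraries (15562) and 0.0900% of its reads on human-named miRNAs, against 0.930 and 0.755% in differentiated MS2 libraries A and B. Whether that difference between control libraries bears on the 2 reads was not tested.

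**Figure D3:**
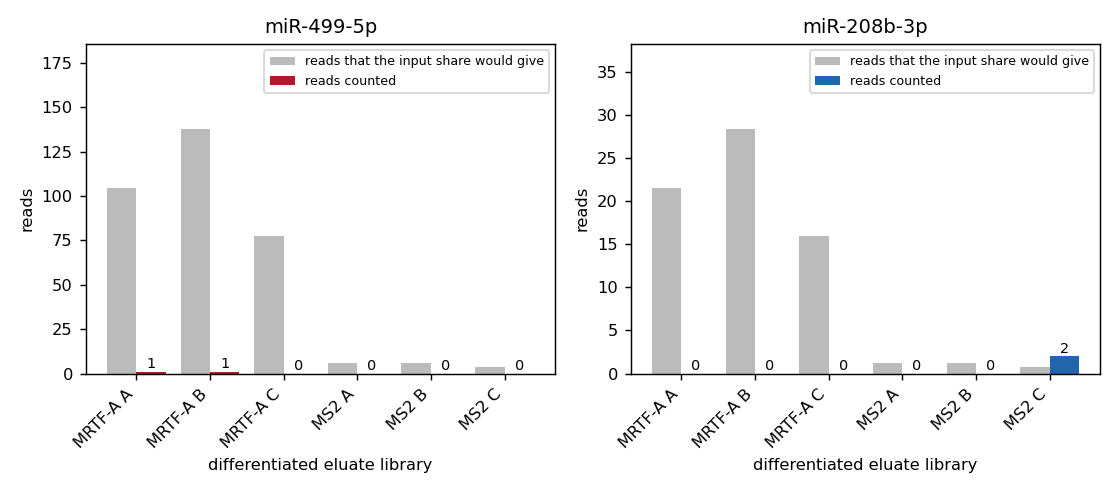
Reads of miR-499-5p (left) and miR-208b-3p (right) in the 6 differentiated eluate libraries: coloured bars are reads counted, grey bars the reads that the mean share in differentiated input would give at that library's depth, and the 2 panels have different vertical scales. In the MRTF-A eluates the grey bars reach 77.4 to 138 reads for miR-499-5p where 0 or 1 was counted, and in the MS2 controls they are 5.92 reads or lower. On the deposited CPM scale, not drawn, the level in input would give 36.8 to 56.8 reads of miR-499-5p in the MRTF-A eluates.

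In the MRTF-A eluate 7 myomiR names were tested against differentiated input, of which 2 were higher, 2 were lower and 3 did not pass (median 0.78). Over all 305 names 95 were higher and 94 lower (median -0.14), a share in each direction close to that of the list. miR-1a-3p went from 7069 ± 609.6 CPM in input to 568026 ± 39253 CPM in the eluate (6.33 ± 0.61, adjusted p = 1.44e-07), and miR-206-3p from 1298 ± 175 to 19079 ± 813 CPM (3.88 ± 0.53, adjusted p = 6.55e-06). The 2 lower names were miR-499-5p and miR-133b-3p, the latter going from 15930 ± 5541 to 397 ± 116 CPM (-5.26 ± 0.65, adjusted p = 1.98e-06). miR-133a-3p, which differs little in sequence from miR-133b-3p so that reads may be split between the names, was at -1.53 ± 0.83 (adjusted p = 0.117). The miR-486 name stood at 0.78 ± 0.37 (limma, adjusted p = 0.0782). These values use the deposited scaling, and with library totals the median of all names moved from -0.14 to -0.83. miR-486-5p had 32658 of 1177822 reads in differentiated input and 26020 of 1264561 in the eluate. As a share of reads it was thus lower in the eluate, so its direction depends on the scaling. Relative to input, miR-499-5p was thus lower in the eluate where miR-1a-3p and miR-206-3p were higher, although all 3 were higher in differentiated than in undifferentiated input. Against the MS2 control eluate 5 of 6 myomiR names tested were higher with the MRTF-A bait, as were 97 of all 169 names. The exception was miR-133b-3p (0.02 ± 0.53, limma, adjusted p = 0.976), whose level in the control was 417 ± 226 CPM. A level of miR-133b-3p below input was thus found in both eluates. The comparison of bait with control also depends on the scaling. With library totals the calls moved from 97 higher and 37 lower to 73 and 49, and the median of all names from 2.37 to 1.18. For miR-499-5p the control held 0 reads where its input share would have given 15.6 over the differentiated MS2 libraries. Little or none of it was thus found in either eluate, and a difference between bait and control was not detectable.

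**Figure D4:**
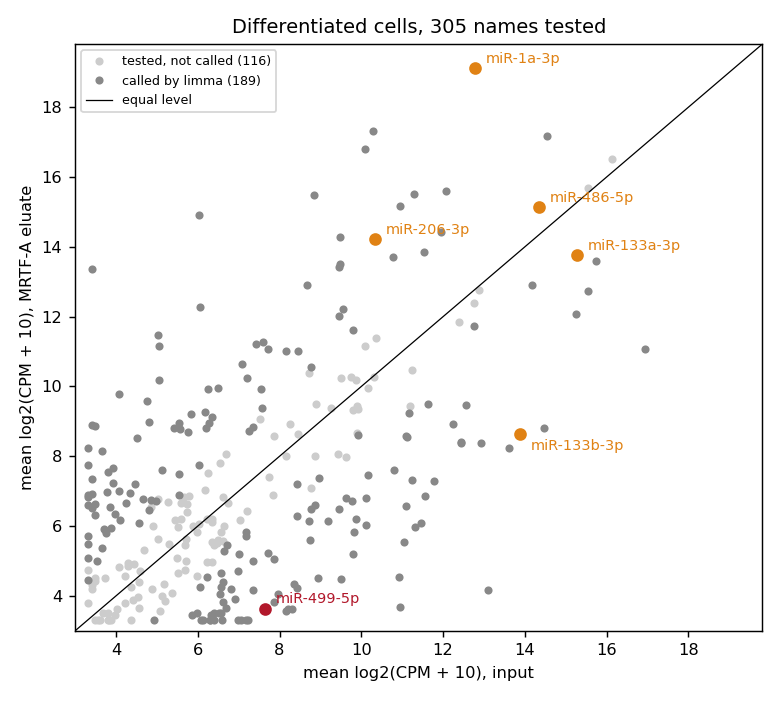
Mean log2(CPM + 10) in differentiated input (horizontal) and in the differentiated MRTF-A eluate (vertical) for the 305 names tested, 3 libraries each, with called names in dark grey and tested myomiRs in colour (miR-3107-5p, which nearly coincides with miR-486-5p, is left out). miR-1a-3p and miR-206-3p lie above the line of equal level and miR-499-5p and miR-133b-3p below it.

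So low a recovery can be set beside that of miRNAs at least as abundant in input, a count that was added after the values were seen. The sets hold all names at or above a member's level, also far more abundant ones, so the percentages and medians are descriptions only. Of the 117 names at or above the level of miR-499-5p in differentiated input, 5 (4.27%) had no more than its 2 reads in the differentiated MRTF-A eluates. These were miR-499-5p itself, miR-770-3p, miR-598-3p and the names miR-7680-3p and miR-7214-5p, while the median of the 117 was 338 reads. Its 2 nearest neighbours in input level went different ways. miR-101a-3p had 20 eluate reads and was itself called lower than input (log2 difference -2.50), while miR-374b-5p had 1785 and was called higher (3.69). Below its level, miR-145a-5p (140 CPM in differentiated input) had 0 eluate reads. Of the 220 names at or above the level of miR-208b-3p, 14 (6.36%) had 0 eluate reads, miR-208b-3p itself among them, and the median of the 220 was 78 reads.

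Seed matches were searched in the annotated 3'UTR of Mrtfa as a description, and whether they bear on recovery was not tested. A miRNA pairs with a target mainly through its seed, and the match to miR-499-5p is AGTCTTA, that to miR-208b-3p CGTCTTA, and GTCTTA for the bases 2 to 7 they share. The longest 3'UTR of Mrtfa in GENCODE vM21 has 1004 bases (transcript ENSMUST00000134469.7), and on its sense strand none of the 3 was found. Within the first 1004 bases of the 11086 mouse 3'UTRs of at least that length, AGTCTTA occurs in 5.94%, CGTCTTA in 0.929% and GTCTTA in 18.6%, so most of these 3'UTRs lack each of them too. ACATTCC, the match to bases 2 to 8 of miR-206-3p, occurs once, at bases 781 to 787 of the Mrtfa 3'UTR, and in 7.30% of the 11086 3'UTRs, Mrtfa included. miR-206-3p, which was higher in the eluate, is the only other miRNA searched. miR-1a-3p, also higher there, belongs to the same seed family, so this match is not one of miR-206-3p alone. Names of other families high or low in the eluate were not searched, so no contrast between them can be drawn. A match or its absence describes these letters only. The sequence of the bait that was used is not given in the sources used here, and pairing outside the seed was not searched.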

How the data were processed

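Small RNA of 18 C2C12 libraries was analysed from 1 table. Per the submitters' processing notes, the tools were edgeR 3.18.1, featureCounts 1.4.6, Bowtie2 2.0.13 and cutadapt 1.4.2 with GRCm38/mm10. How strand and reads matching several miRNAs were handled is not given in the sources used here. Each library's deposited signal is a normalised CPM, and it is whole multiples of 1 step, from which whole reads were recovered (100% of values within 0.01 read). The log2 fold changes and the p-values with FDR are the authors', per the file headers; base 2 was read from the values. Columns were assigned to groups by name. Their endings do not match the sample titles.

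The design named edgeR for counts and limma for scaled values, so limma 3.58.1 (R 4.3.3, trend, threshold 0.05) was run on log2(CPM + 10) of all names kept by filterByExpr on recovered reads (minimum count 10): 313 in the 6 inputs, 169 in the 12 eluates, 305 in all 18 libraries. Replicates differed by more than counting noise in every group (lowest chi-square over its degrees of freedom 3.90). Libraries with the same column ending deviated together among eluates (lowest r 0.122, against at most 0.0763 for different endings). Between MRTF-A eluate and input the ranges overlapped (0.133 to 0.402 against -0.347 to 0.254), as between the inputs (-0.195 to 0.139 against -0.170 to 0.255). Alternatives were other pseudocounts, scalings, filters and tests (edgeR 4.0.16, DESeq2 1.42.0), a block by column ending, and leaving out libraries. Intervals are exact binomial ones at 95%, and the bound of a fold takes 3 reads in each library with none. Python 3.11.15 with scipy 1.17.1 was used for counts and sequences.

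Names given in the text are the members, the other arms, the myomiR and marker lists, the 5 most alike names by Pearson r, and names next in level. Members and lists were chosen with earlier results of these data known.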

Additional observations from a re-analysis of the deposited data

How the results depend on the processing

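The rise of both members in input kept its direction and passed in all 9 other settings and with each of 6 libraries left out (largest adjusted p 3.99e-05 for miR-499-5p and 0.000907 for miR-208b-3p, by limma, edgeR or DESeq2). Its size depends on the pseudocount and tool, since undifferentiated input has no read: 2.26 to 9.91 for miR-499-5p and 0.84 to 7.63 for miR-208b-3p on the log2 scale, and 4.28 to 4.34 and 2.23 to 2.37 with a library left out. The difference of miR-499-5p between the MRTF-A eluate and input ranged from -6.23 to -2.19, or -4.11 to -3.85 with a library left out. Both members entered these fits only through differentiated input, where they had reads, so passing under other settings adds nothing to the read counts. Without the filter the names called between MRTF-A eluate and input numbered 307 instead of 189, as 1604 names were tested. The replicate block by column ending left the differences at 4.32, 2.30 and -4.00 and changed no call of a member. In the comparisons among eluates the members had values only without the filter, from groups of 2 reads or fewer, and none passed (lowest adjusted p 0.259, limma). Depth limits the MS2 control most, where 3 reads are worth 35.6 to 103 CPM.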
